A study of Mus musculus with 25 samples.

Results

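The departure from additivity of losing Prdm1 and c-Maf was measured per gene in CD8+ T cells taken from tumours of B16F10, a mouse melanoma line grown in recipient mice. It is the cDKO mean minus the Prdm1 cKO mean minus the c-Maf cKO mean plus the wild-type mean, on the log2(value + 1) scale. All 25 bulk RNA-seq libraries entered it: 16 wild type, 3 with conditional loss of Prdm1 (Prdm1 cKO), 3 with conditional loss of c-Maf (c-Maf cKO) and 3 with loss of both (Prdm1/c-Maf cDKO), all from tumour-bearing C57BL/6 mice. Of 23366 gene symbols, the 12251 with a value of at least 1 in 3 or more libraries were tested. The labels give no age, sex, day or deleting line, and leave unstated whether each library is a separate animal. The p-values thus reflect only how these libraries vary, which may be technical.

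A departure of 0 means that the effects of losing each factor add up on the log2 scale. The same number is also the difference between the effect of c-Maf loss in cells that lack Prdm1 (cDKO minus Prdm1 cKO) and its effect in cells that have Prdm1 (c-Maf cKO minus wild type). The descriptive classes follow. In the greater than additive class, the cDKO effect goes beyond the sum of the single effects in the same direction. In the buffered class, it falls short of that sum and is no larger in size. A buffered cDKO effect can therefore be weaker with the same sign or have the other sign. In the opposed class, it exceeds the sum in size with the other sign. Prdm1 encodes Blimp-1, a zinc finger repressor that drives effector differentiation and represses memory genes in lymphocytes. Maf encodes c-Maf, a basic leucine zipper factor that binds Maf recognition elements and induces IL-10 in T cells. Both factors are known to take part in the expression of co-inhibitory receptors on tumour-infiltrating T cells, and the design text asks for the expression signature of cells that lack either or both.

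Among the deleted genes, Prdm1 was low where its loss was labelled. It was 6.45 at the lowest, 14.5 at the median and 24.85 at the highest in wild type, against 4.71, 0.41 and 3.66 in the Prdm1 cKO libraries A5, A6 and A9 and 4.69, 1.18 and 3.27 in the cDKO libraries C2, A1 and A2. No library of either group overlapped the wild-type range (exact two-sided permutation p = 0.00103 for each, the smallest that 969 splits allow), and the departure of Prdm1 itself was -0.02. Maf lay near the bottom of the scale: of the libraries labelled c-Maf cKO, B10 and B11 were listed at 0 and C1 read 0.93, a value that wild-type libraries also reached. As a share of the wild-type mean, Maf was 67.1% in c-Maf cKO (exact permutation p = 0.498), 15.2% in cDKO (p = 0.0402) and 180% in Prdm1 cKO (p = 0.0722). Maf was as low as 0.03 in wild type, so a listed 0 alone does not show deletion. Every departure below therefore rests in part on a c-Maf cKO group whose deletion these values do not establish.

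Markers of other cells moved with the genotypes. The macrophage and monocyte score, the mean log2(value + 1) of 16 tested markers, was 3.21 ± 1.38 in wild type (SD, n = 16), 5.95 ± 0.758 in Prdm1 cKO (n = 3), 3.58 ± 1.53 in c-Maf cKO (n = 3) and 2.11 ± 0.651 in cDKO (n = 3). The summed values of the markers ran from 55.93 to 2544.02 in wild type, 1547.61 to 4624.98 in Prdm1 cKO, 214.36 to 1306.9 in c-Maf cKO and 157.08 to 273.25 in cDKO. At most 7 of the 16 markers were listed at 0 in a wild-type library, 0 in a Prdm1 cKO library, 2 in a c-Maf cKO library and 6 in a cDKO library. The erythroid score, over 7 tested markers, was 2.35 ± 1.23 in wild type, 3.92 ± 1.30 in Prdm1 cKO, 1.41 ± 0.538 in c-Maf cKO and 5.32 ± 2.32 in cDKO. Its summed values ran from 2.16 to 1574.25, 226.73 to 1859.56, 19.87 to 141.83 and 463.1 to 4275.04 in the same order, with up to 5, 3, 4 and 2 of the 7 markers listed at 0. The score of 8 CD8 T cell markers lay between 7.012 and 8.537 in all libraries. In bulk libraries, fewer cells of a type and less RNA per cell cannot be told apart. The columns form 3 blocks, each with 1 knockout group and its neighbouring wild-type columns (7, 4 and 5), called column sets here and a candidate batch only. Where the column set, or both scores together, as covariates moved a named departure by more than 1.5 times or turned its sign, that value is given beside it.

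**Figure D1:**
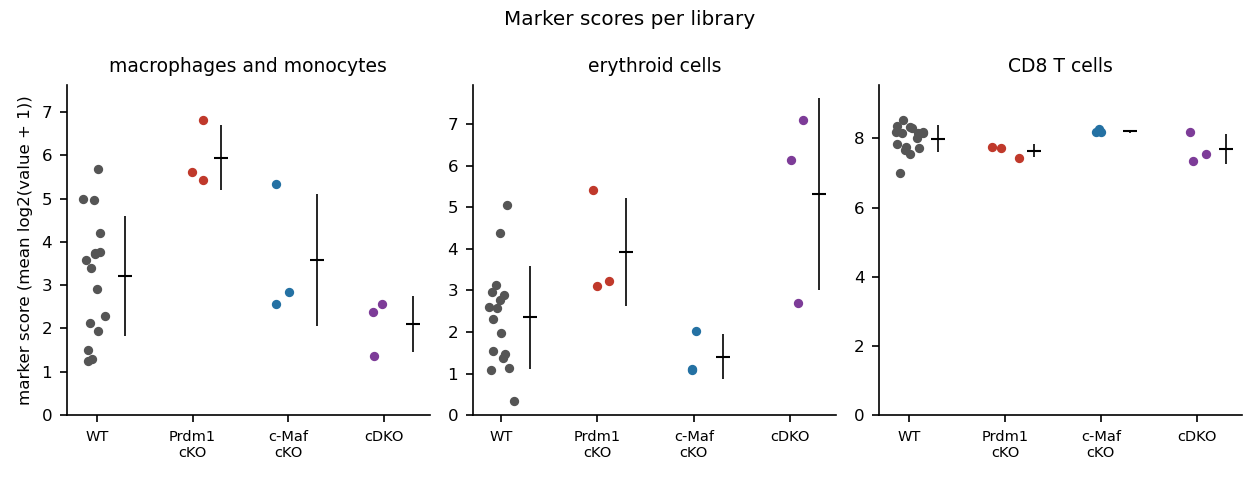
Marker scores per library (mean log2(value + 1) of each marker list, vertical axis) by genotype; points are libraries, the horizontal tick is the group mean and the bar 1 SD. The 3 Prdm1 cKO libraries lie between 5.418 and 6.816 on the macrophage score and the 3 cDKO libraries between 1.361 and 2.568, while the CD8 T cell scores of all libraries lie between 7.012 and 8.537.

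Across the transcriptome, 1 gene departed from additivity at a Benjamini-Hochberg adjusted p under 0.05 in limma, the macrophage gene Retnla, in the negative direction (0.00816% of the genes tested). In the positive direction 0 genes were called, 634 had an unadjusted p under 0.05 and the other settings tried gave 0 to 31 calls. In the same fit, 423 genes were called in Prdm1 cKO against wild type (3.45%), 1463 in cDKO against wild type (11.9%), 1150 in cDKO against c-Maf cKO (9.39%; 3.78% higher and 5.61% lower) and 48 in cDKO against Prdm1 cKO (0.392%; 8 higher, 0.0653%, and 40 lower, 0.327%). In c-Maf cKO against wild type 0 genes were called by limma, 755 (6.16%) had an unadjusted p under 0.05, and the other settings tried gave 0 to 17 calls. Single libraries decide these small counts: without A6 of Prdm1 cKO, 31 genes were called higher and 61 lower in the departure and 142 between cDKO and Prdm1 cKO, without C2 of cDKO 9 and 21 were called in the departure, and without A2 of cDKO 3 were called between cDKO and Prdm1 cKO. With the column set or with both marker scores as covariates, 0 genes were called in either comparison. All these comparisons share libraries. For reading the gene lists below, 1.58% of all genes tested were higher and 1.87% lower in Prdm1 cKO against wild type, and 5.09% were higher and 6.85% lower in cDKO against wild type.

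The precision of the contrast limits what can be called. The median standard error (SE) of a departure was 0.421 log2 units (10th to 90th percentile 0.264 to 0.681), which put the bounds of the 95% interval a median of 0.863 from the estimate. A gene is therefore described as close to additive only where its 95% interval lies within 1 log2 unit of 0. That held for 3699 genes (30.2%), and for 393 of the 1463 genes called in cDKO against wild type (26.9%). For the remaining genes the data allowed neither a call nor that description.

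At an unadjusted p under 0.05, 1436 genes departed from additivity, 11.7% of those tested (634 higher, 5.18%, and 802 lower, 6.55%). By the arithmetic of the fitted effects, 786 of them were buffered (54.7%), 449 opposed (31.3%) and 201 greater than additive (14%). At an adjusted p under 0.1, 50 genes remained, 15 higher and 35 lower, of which 33 were buffered, 15 opposed and 2 greater than additive. The single knockout libraries enter both the sum of the single effects and, with the opposite sign, the departure, so spread in those libraries alone yields buffered and opposed genes, and the shares are a description.

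**Figure D2:**
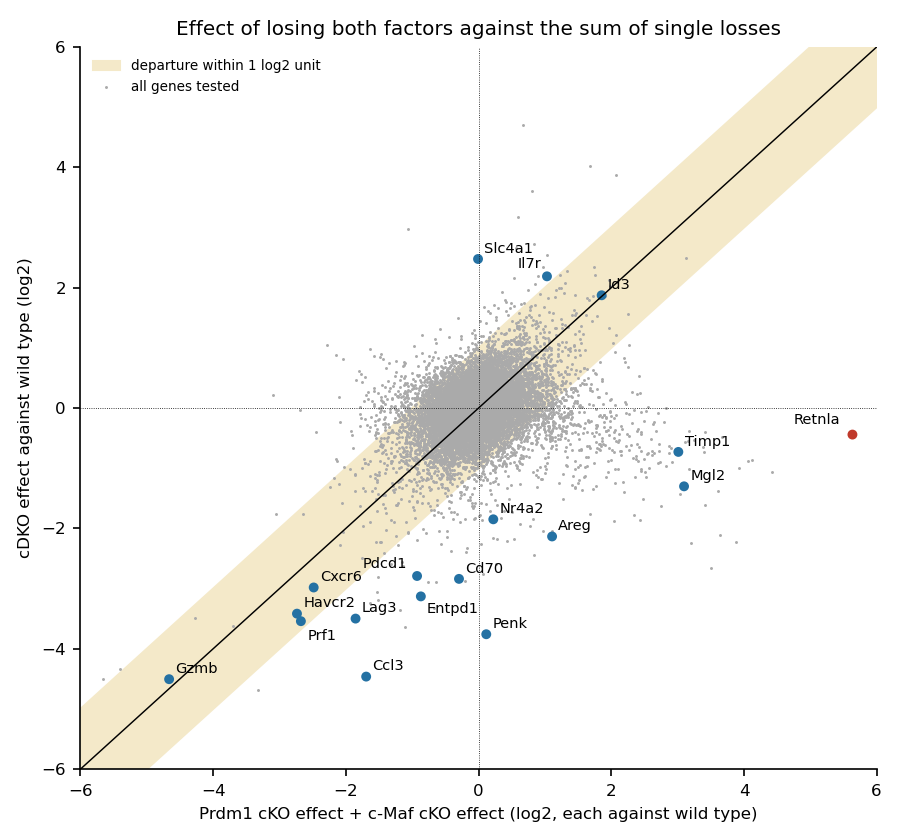
Effect of losing both factors (cDKO minus wild type, log2, vertical axis) against the sum of the Prdm1 cKO and c-Maf cKO effects (log2, horizontal axis) for each of the 12251 genes; the diagonal marks additivity and the shaded band 1 log2 unit either side. Retnla, in red, is the only called gene; Gzmb and Id3 sit near the diagonal (departures of 0.16 and 0.02), and Penk, Cd70 and Nr4a2 lie below it.

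Retnla, which encodes the secreted protein RELMα of alternatively activated macrophages, was high in the libraries that lacked Prdm1 alone. It was listed at 0 in the wild-type median library and at 3.68 in the highest, at 31.32, 36.94 and 49.68 in Prdm1 cKO, with 0, 0 and 11.39 in c-Maf cKO and at 0 in all 3 cDKO libraries. The Prdm1 cKO libraries lay above every other library, and the c-Maf cKO library with signal was C1. The effect of Prdm1 loss was 4.87 (adjusted p = 2.78e-05, limma) and the cDKO effect -0.44 (adjusted p = 0.692). The departure was -6.08 ± 0.90 (SE; 95% interval -7.92 to -4.24; adjusted p = 0.00413, limma), against a sum of single effects that puts the additive cDKO value at 66.5. With the column set as covariate it was -5.26 (adjusted p = 0.369), and with the macrophage and erythroid scores, of which the first includes Retnla, it was -4.0 (adjusted p = 0.4).

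Retnla belongs to the macrophage marker list, whose tested members all had negative departures. Over the 16 tested macrophage and monocyte markers the median was -4.26, beside 0.003 over all genes tested, and 1 was called. Lyz2, the macrophage lysozyme, was 643.13, 731.4 and 1735.61 in Prdm1 cKO and 168.9, 34.07 and 19.02 in cDKO, with a departure of -4.98 ± 2.02 (limma adjusted p = 0.33; -2.77 with the column set). Emr1, the macrophage surface receptor F4/80, was 13.41, 9.97 and 27.56 in Prdm1 cKO, with 1.43, 2.64 and 20.3 in c-Maf cKO and 0.14, 0.54 and 0.11 in cDKO, with a departure of -4.92 ± 1.18 (adjusted p = 0.0927; -1.57 with both scores). Mgl2, a macrophage lectin, was lower in cDKO than in Prdm1 cKO by the test (-4.38, adjusted p = 0.0498), and its departure was -4.40 (adjusted p = 0.165; -1.27 with both scores). The erythroid list went the other way: 7 of 7 tested markers had a positive departure, median 2.48. Their median SE was 1.929, and 1 of them, Slc4a1, had an unadjusted p under 0.05. The erythroid scores of the cDKO libraries were 2.699 in C2, 6.155 in A1 and 7.109 in A2. With both scores in the fit, the medians were 0.03 for the macrophage list and -0.32 for the erythroid list, and Lyz2 was at 1.46. Each score is the mean of the markers in its own list, so this fit draws their departures towards 0 by construction. The values with both scores therefore say nothing further about these lists or their members.

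The other 11 of the 12 genes with the strongest negative departures by p-value did not pass the threshold (adjusted p between 0.052 and 0.069, limma) and are given as values. In Trim47, Cysltr1 and Cd93, Prdm1 cKO was raised by the test, and Slc4a11 is given beside them as a description only. Trim47, a ubiquitin ligase of the TRIM family, was 5.95, 3.4 and 6.94 in Prdm1 cKO and 0, 0.65 and 0 in cDKO (departure -2.98). Slc4a11, a membrane transporter, was 2.86, 2.33 and 4.95 against 0, 0.07 and 0 (-1.85), and Cysltr1, a receptor for cysteinyl leukotrienes, was 4.67, 4.29 and 10.94 against 0, 0.64 and 0 (-3.02). Cd93, a receptor of myeloid and endothelial cells, was 2.91, 1.87 and 12.73 against 0.11, 0.05 and 0.25 (-2.65). Trim47, Cysltr1 and Cd93 rose in Prdm1 cKO against wild type (adjusted p = 0.00622, 0.00216 and 0.0368, limma) and were lower in cDKO than in Prdm1 cKO (adjusted p = 0.0236, 0.0276 and 0.0276). With both scores as covariates their departures were -1.69, -1.48 and -1.41. Slc4a11 reached a value of 1 in 1 library outside Prdm1 cKO, so it passed the filter through the group in which it was high, and its values are a description.

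Ctsb, which encodes the lysosomal protease cathepsin B, was highest at the median in Prdm1 cKO and lowest in cDKO. It was 69.37 at the lowest, 123.23 at the median and 214.43 at the highest in wild type, 191.9, 166.19 and 276.13 in Prdm1 cKO, with 117.1, 113.87 and 155.69 in c-Maf cKO, and 52.16, 48.48 and 52.65 in cDKO. The 3 cDKO libraries lay below all others. Ctsb fell in cDKO against wild type (-1.18, adjusted p = 0.00256, limma) and against Prdm1 cKO (-2.00, adjusted p = 0.0055), and its departure was -2.12 ± 0.41 (adjusted p = 0.052), or -0.93 with the macrophage and erythroid scores. Ctsc, the cathepsin that activates granzymes, departed by -2.16 (adjusted p = 0.069; -0.77 with the scores), and Ctsd, another lysosomal cathepsin, by -1.12 (adjusted p = 0.083; -1.05 with the scores).

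Cd70, the ligand of the co-stimulatory receptor CD27, was close to the bottom of the scale in cDKO only. It was 2.58 at the lowest, 10.3 at the median and 15.16 at the highest in wild type, 11.79, 5.52 and 3.81 in Prdm1 cKO, with 12.13, 9.11 and 7.63 in c-Maf cKO, and 0.28, 0.26 and 0.56 in cDKO. The cDKO libraries did not overlap any other group. Cd70 fell in cDKO against wild type (-2.84, adjusted p = 3.25e-05, limma) and against Prdm1 cKO (-2.44, adjusted p = 0.0152), while the single effects were -0.40 and 0.11. The departure was -2.54 ± 0.56 (adjusted p = 0.0606), -2.47 with the column set and -2.85 with both scores.

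Lad1, which encodes the anchoring filament protein ladinin, had fitted single effects of opposite sign (-0.99 and 1.06). It was 15.65, 5.47 and 2.84 in Prdm1 cKO, with 36.76, 29.06 and 24.81 in c-Maf cKO, all above the wild-type maximum of 23.83, and 0.36, 2.54 and 1.15 in cDKO, all below the wild-type minimum of 3.86. Its departure was -2.83 (adjusted p = 0.0584, limma). Ccdc109b, a subunit of the mitochondrial calcium uniporter complex, was 20.81, 12.37 and 38.57 in Prdm1 cKO, with 17.61, 14.63 and 19.57 in c-Maf cKO and 7.37, 3.26 and 2.07 in cDKO (departure -3.28; -2.17 with both scores). Ptgr1, a prostaglandin reductase, was at 0.3, 0.1 and 0 in cDKO, below the wild-type minimum of 0.49 (departure -2.45; -1.60 with the column set). Plxdc2, a membrane protein, departed by -2.78, and Tbcb, a tubulin folding cofactor, by -1.08 with cDKO values of 24.26, 30.47 and 22.64 below the wild-type minimum of 37.36.

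None of the 12 genes with the strongest positive departures passed the threshold (adjusted p between 0.052 and 0.0927, limma). Cdkn1b, which encodes the cell cycle inhibitor p27, was 8.1 at the lowest, 11.2 at the median and 17.18 at the highest in wild type, 10.58, 12.73 and 10.07 in Prdm1 cKO, with 8.39, 8.83 and 6.94 in c-Maf cKO, and 19.56, 21.83 and 21.44 in cDKO. Its cDKO libraries lay above all others and its level rose against wild type (0.86, adjusted p = 0.00111), with single effects of 0.00 and -0.42 and a departure of 1.28 ± 0.27 (adjusted p = 0.052). Arhgef18, a guanine nucleotide exchange factor, was 17.37, 18.32 and 14.96 in cDKO against a wild-type maximum of 11.67, rose against wild type (1.20, adjusted p = 0.000718) and departed by 1.46 (0.91 with the column set). Leng8 also rose in cDKO (0.69, adjusted p = 0.0276), with a departure of 1.49 (0.61 with the column set). Rpl36, a ribosomal protein gene, was 956.71, 698.23 and 740.89 in cDKO, above the wild-type maximum of 641.97, and departed by 0.85 (0.97 with the column set).

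In a further 7 of the 12 the fitted effects of both single losses were negative and that of losing both was positive. Leng8 had the same signs, as did Cdkn1b, whose Prdm1 cKO effect was -0.003. Nfx1, a zinc finger transcription factor, was 10.91, 8.03 and 13.56 in Prdm1 cKO, with 12.28, 9.69 and 9.18 in c-Maf cKO and 18.23, 18.6 and 20.05 in cDKO, with a wild-type median of 14.8 (departure 1.27). Terf1, a telomere-binding protein, fell in Prdm1 cKO (-0.81, adjusted p = 0.0197, limma) and stood at 0.07 in cDKO (adjusted p = 0.869), with a departure of 1.47. Hist1h4c, a histone H4 gene, fell in Prdm1 cKO (-1.34, adjusted p = 0.0197) and was higher in cDKO than in Prdm1 cKO (1.96, adjusted p = 0.0276), with a departure of 2.42. Signal of a histone gene can be shared with near-identical copies. Grhpr, a glyoxylate reductase, had the same pattern (Prdm1 cKO -0.67, adjusted p = 0.0345; departure 1.23). Kcnj8, an ATP-sensitive potassium channel subunit, departed by 2.44, Ppargc1b, a coactivator of mitochondrial genes, by 1.78, and P2ry14, a receptor for UDP-sugars, by 2.37. The additive cDKO value was 0 or lower for Kcnj8 and P2ry14, below which no library can read, and 0.127 for Ppargc1b. P2ry14 was listed at 0 in all 3 Prdm1 cKO libraries. How far the bottom of the scale shapes these departures was not tested. Slc4a1, the erythrocyte anion exchanger, was 1.66, 5.46 and 13.55 in cDKO and at most 0.79 in wild type. It departed by 2.48, or 1.56 with both scores, beside the raised erythroid score, which includes Slc4a1. It reached 1 in 1 library outside cDKO, so it passed the filter through the group in which it was high.

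Of 24 tested cytotoxic effectors, 9 fell in Prdm1 cKO (1.87% of all genes), and 12 fell (6.85%) and 1 rose in cDKO, 0 were called in c-Maf cKO, and departures ran from -2.16 to 1.30. Their median of 0.03 (0.20 with the column set, -0.10 with both scores) had 12 members on each side of 0, a median SE of 0.641 and 3 close to additive. Ctsc, Ctsd, Serpinb6a and Stx11, 4 of the 24, departed downwards at an unadjusted p under 0.05, against 6.55% of all genes. Gzmb, the granule protease granzyme B, was 114.16 at the lowest, 449.64 at the median and 1050.61 at the highest in wild type, 5.68, 7.18 and 32.17 in Prdm1 cKO, with 418.25, 535.46 and 788.53 in c-Maf cKO, and 47.33, 8.49 and 12.47 in cDKO. Both groups without Prdm1 lay below every other library and overlapped each other. The effects were -5.10 for Prdm1 loss (adjusted p = 2.97e-05, limma), 0.43 for c-Maf loss and -4.51 for both (adjusted p = 6.56e-05), and the departure was 0.16 ± 0.91 with a 95% interval of -1.72 to 2.04 (1.05 with the column set, -0.024 with both scores). Prf1, perforin, gave -3.22, 0.54 and -3.54 and a departure of -0.87 (interval -2.92 to 1.19; 0.038 with the column set). Gzma, granzyme A, was 4.2, 12.03 and 11.44 in Prdm1 cKO and 48.97, 10.18 and 20.25 in cDKO, and departed by 1.30 (adjusted p = 0.544; -0.26 with the column set, 0.68 with both scores). Fasl, the death ligand, is 1 of 3 cytotoxic members close to additive: -1.15 in Prdm1 cKO, -0.04 in c-Maf cKO, -1.22 in cDKO, departure -0.03 with an interval of -0.98 to 0.92 (-0.51 with the column set, -0.22 with both scores). Granzyme genes have close copies between which signal may be divided.

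Havcr2, which encodes the co-inhibitory receptor Tim-3, had the pattern of Gzmb. It was 13.13 at the lowest, 43.41 at the median and 84.26 at the highest in wild type, 6.78, 1.11 and 7.76 in Prdm1 cKO, with 46.67, 45.51 and 50.55 in c-Maf cKO, and 3.04, 3.65 and 2.05 in cDKO. It fell in Prdm1 cKO (-2.97, adjusted p = 0.000805, limma) and in cDKO (-3.42, adjusted p = 6.56e-05), with a departure of -0.68 (interval -2.16 to 0.80; -0.16 with the column set). The promoters of these genes that fell with Prdm1 loss are shown, because they carry matches to the motif types of Maf or of AP-1, the bZIP family whose element the Maf recognition element extends. The 250 bases before the annotated start are printed 5′ to 3′ on the gene's strand, from RefSeq's GRCm38.p6 annotation (Gzmb at chr14:56262335-56262584, minus strand; Havcr2 at chr11:46454681-46454930, plus strand), with motif matches in capitals.
Gzmb: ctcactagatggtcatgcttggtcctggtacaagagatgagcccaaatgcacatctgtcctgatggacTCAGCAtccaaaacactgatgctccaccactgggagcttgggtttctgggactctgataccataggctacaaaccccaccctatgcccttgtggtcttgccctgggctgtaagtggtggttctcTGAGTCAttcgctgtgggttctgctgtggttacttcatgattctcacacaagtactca
Havcr2: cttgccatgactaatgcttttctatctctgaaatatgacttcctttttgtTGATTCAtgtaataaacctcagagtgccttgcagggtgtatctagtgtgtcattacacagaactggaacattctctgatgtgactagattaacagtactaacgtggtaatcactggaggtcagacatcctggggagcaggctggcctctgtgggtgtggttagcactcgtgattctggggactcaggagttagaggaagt
The motifs searched, on both strands, were GNGAAAG (Blimp-1 type), TGCTGA (Maf type) and TGANTCA (AP-1 type). In Gzmb the Maf type match begins 182 bases before the start, read on the other strand, and the AP-1 type match 58 bases before it; Havcr2 has an AP-1 type match 200 bases before the start. Of 9079 promoters of tested genes, 19.8% held GNGAAAG, 12.7% TGCTGA and 4.31% TGANTCA. Among the 24 genes of strongest departure 12 had a promoter in the table, of which 1, 4 and 2 held the motifs in that order; among the T cell genes chosen for description, Gzmb and Havcr2 included, 26 had one, of which 3, 1 and 4 held them. A match describes the letters in this window and no binding.

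Co-inhibitory receptors and ligands departed downwards at the median. Of 18 tested, 1 rose and 2 fell in Prdm1 cKO, 0 were called in c-Maf cKO, 7 fell in cDKO and 0 were called in the departure. The median departure was -1.10 (16 negative, 2 positive), -0.93 with the column set and -0.71 with both scores, beside 0.003 over all genes. At an unadjusted p under 0.05, 5 departed downwards (background 6.55%). Pdcd1, which encodes PD-1, was 56.52 at the lowest, 192.89 at the median and 334.16 at the highest in wild type, 138.88, 26.45 and 45.05 in Prdm1 cKO, with 279.91, 241.81 and 334.82 in c-Maf cKO, and 42.9, 19.26 and 16.89 in cDKO. All 3 cDKO libraries lay below the wild-type range, and A5 of Prdm1 cKO lay within it. Pdcd1 fell in cDKO (-2.79, adjusted p = 0.000746, limma), was at -1.63 in Prdm1 cKO (adjusted p = 0.0585) and 0.71 in c-Maf cKO, and departed by -1.86 ± 0.80 (unadjusted p = 0.0288, adjusted p = 0.353; -0.99 with the column set).

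Among the other members, Lag3, a receptor for MHC class II, fell in both groups without Prdm1 (-2.07, adjusted p = 0.0301, and -3.50, adjusted p = 0.000207, limma) and departed by -1.65 (interval -3.42 to 0.12; -1.02 with the column set). Cd200r1, the receptor of the inhibitory ligand CD200, was 8.4, 3.82 and 13.68 in Prdm1 cKO, with 17.3, 11.22 and 13.17 in c-Maf cKO and 2.85, 0.93 and 0 in cDKO. It fell in cDKO (-2.05, adjusted p = 0.0165), with a departure of -3.03 (adjusted p = 0.176). Cd200 itself was 1.49, 1.36 and 1.11 in cDKO, below the wild-type minimum of 1.58, and departed by -2.19 (adjusted p = 0.177). Tigit and Ctla4, receptors that compete for ligands of CD226 and CD28, had departures of -0.12 and -0.20, with intervals of -1.21 to 0.97 and -1.20 to 0.80, and each takes the other sign with the column set (0.06 and 0.44) or after rescaling to the CD3 genes (0.11 and 0.024), beside -0.45 and 0.047 with both scores. Procr, the protein C receptor, rose in Prdm1 cKO (1.31, adjusted p = 0.0368) and departed by -1.69 (adjusted p = 0.247; -0.98 with both scores). Pdpn, podoplanin, was 15.88, 8.54 and 5.97 in Prdm1 cKO and 0, 2.56 and 1.81 in cDKO (departure -1.17, or -0.31 with both scores). Il10, outside that list, the cytokine that c-Maf is known to induce, was at most 0.82 in cDKO. It ran from 0.08 to 6.48 in wild type, 0.07 to 2.77 in Prdm1 cKO and 0.18 to 8.13 in c-Maf cKO, and all these ranges overlapped. Its departure was -0.70 (interval -2.50 to 1.10, 0.29 with the column set, -0.46 with both scores).

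The ectonucleotidases divided. Entpd1 (CD39), which degrades ATP, was 11.16 at the lowest, 29.91 at the median and 52.93 at the highest in wild type, 5.97, 6.6 and 18.57 in Prdm1 cKO, with 40.25, 40.46 and 67.02 in c-Maf cKO, and 3.65, 1.76 and 2.15 in cDKO. The cDKO libraries lay below every other library. Entpd1 fell in Prdm1 cKO (-1.57, adjusted p = 0.0212, limma) and in cDKO (-3.13, adjusted p = 3.25e-05), and departed by -2.26 ± 0.60 (unadjusted p = 0.000903, adjusted p = 0.127), -1.90 with the column set and -2.24 with both scores. Nt5e (CD73), which makes adenosine from AMP, went up instead: it was 20.8, 20.9 and 22.15 in cDKO against a wild-type maximum of 10.97, rose in cDKO (1.70, adjusted p = 0.00192) and departed by 0.91 (interval -0.25 to 2.07). Of the 12 tested genes of this list, 2 rose and 3 fell in cDKO, against 5.09% and 6.85% of all genes.

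Penk, which encodes proenkephalin, the precursor of enkephalin opioid peptides, departed furthest among 36 T cell genes set out for description. It was 6.94 at the lowest, 24.6 at the median and 165.59 at the highest in wild type, 53.45, 18.32 and 22.43 in Prdm1 cKO, with 29.42, 23.36 and 11 in c-Maf cKO, and 0.66, 2.19 and 0 in cDKO. Neither single knockout left the wild-type range, and no cDKO library reached it. Penk fell in cDKO against wild type (-3.76, adjusted p = 0.000436, limma) and against Prdm1 cKO (-4.06, adjusted p = 0.0276). The departure was -3.87 ± 1.01 (unadjusted p = 0.000829, adjusted p = 0.125), -3.98 with the column set and -3.62 with both scores.

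**Figure D3:**
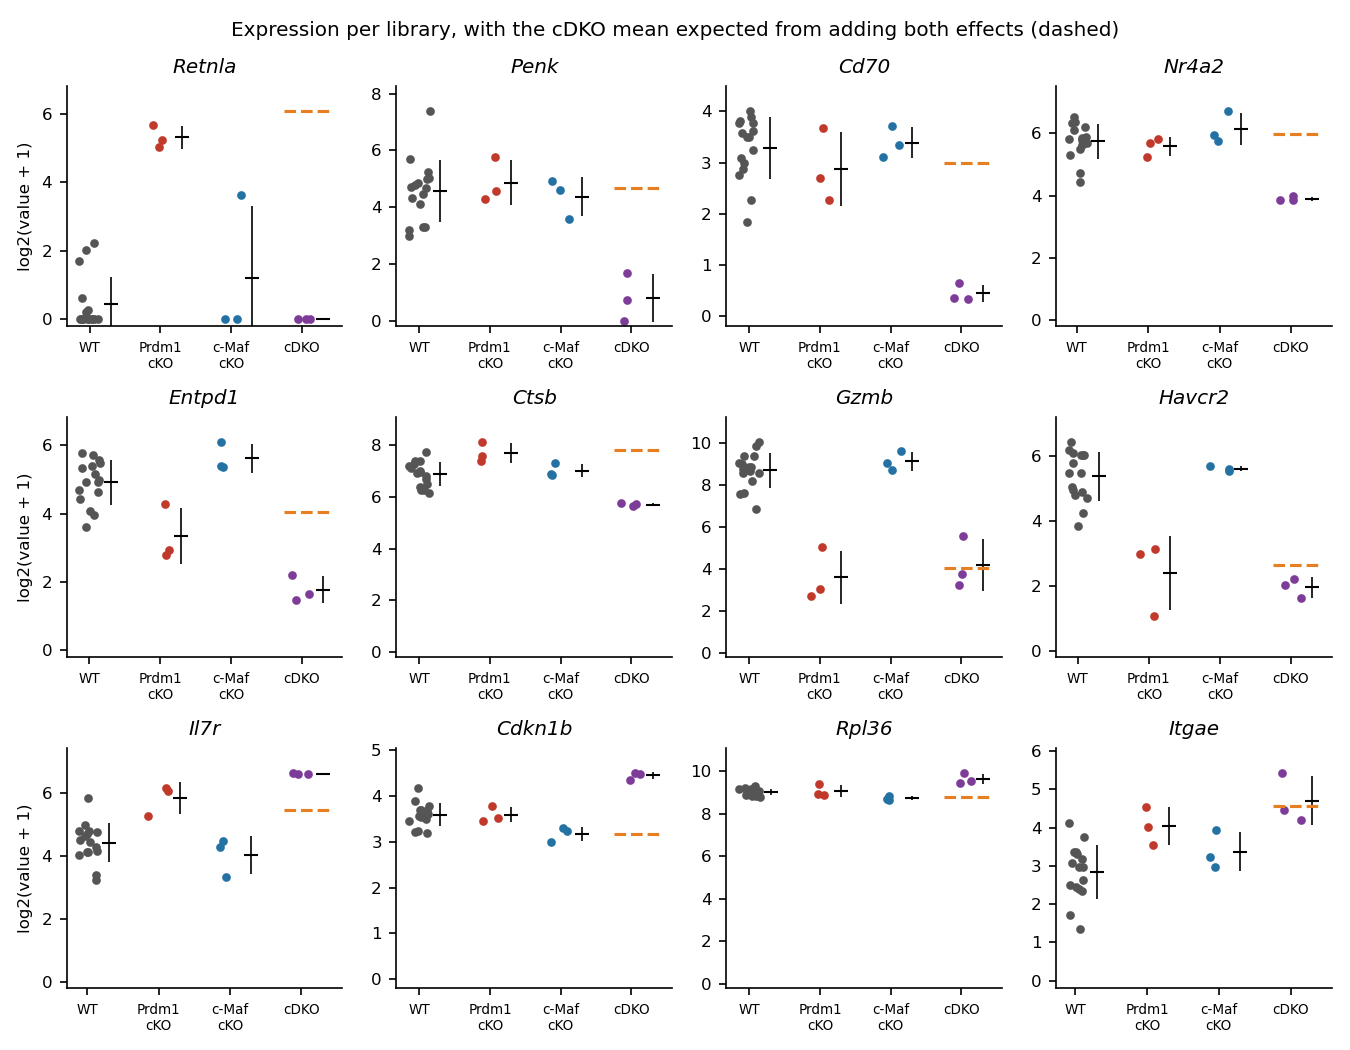
Expression per library (log2(value + 1), vertical axis) of 12 genes by genotype; points are libraries, the black tick and bar are the group mean and SD, and the dashed orange line is the cDKO mean expected from adding both single effects. The cDKO means of Gzmb and Itgae lie near the dashed line (departures of 0.16 and 0.13), with their points on both sides of it. All cDKO points of Havcr2 (departure -0.68), Penk, Cd70, Nr4a2, Entpd1, Ctsb and Retnla lie below it. Those of Il7r, Cdkn1b and Rpl36 lie above it.

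Chemokines had the lowest median departure of the lists of T cell genes in the model without covariates. With both scores other lists were lower, among them S100 proteins and annexins (-0.84). Of 10 chemokines tested, 3 fell in Prdm1 cKO (1.87% of all genes) and 5 in cDKO (6.85%). A negative departure was seen in 9, and 6 departed downwards at an unadjusted p under 0.05 (6.55%). The median was -2.18, -1.79 with the column set and -0.52 with both scores, and some members are also made by macrophages, whose markers moved with them. Ccl3, an inflammatory chemokine of activated T cells and macrophages, was 32.08, 34.71 and 85.7 in Prdm1 cKO and 40.94, 4.47 and 2.4 in cDKO, against 55.14 to 656.24 in wild type. It fell in cDKO (-4.46, adjusted p = 0.000151, limma) and departed by -2.77 ± 1.03 (adjusted p = 0.29; -2.77 with both scores). Ccl4, a related inflammatory chemokine, departed by -1.66 and Ccl5 by -0.18 (interval -1.18 to 0.81), the latter at 0.045 after rescaling to the CD3 genes, -0.91 with the column set and -0.57 with both scores. Xcl1, a chemoattractant for cross-presenting dendritic cells, was 102.92, 3.96 and 6.85 in cDKO, where C2 stood within the wild-type range of 24.56 to 113.24, and departed by -2.72. Ccl9 and Cxcl16 departed by -3.50 and -2.69, by -2.12 and -1.19 with the column set, and by -0.48 and -0.29 with both scores.

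C2 stood apart from A1 and A2 in further effector genes. It also differed in erythroid score (2.699 against 6.155 and 7.109) and in the score of 11 melanoma markers (2.928 against 6.357 and 5.819). Its CD8 T cell score was 8.184 against 7.335 and 7.553, and its macrophage score 2.568 against 2.388 and 1.361. Whether these differences bear on the genes below was not tested. In Ifng, interferon gamma, the cDKO libraries were 39.29, 1.65 and 4.71, and in Tbx21, which encodes T-bet, 49.94, 7.82 and 11.24, in each case with C2 inside the wild-type range. Both fell in cDKO (-2.22, adjusted p = 0.01, and -1.62, adjusted p = 0.00785, limma), with departures of -0.68 and -0.39 (0.19 and -1.06 with the column set, -0.65 and -0.77 with both scores). Leaving out 1 library at a time moved these between -1.81 and 0.16 for Ifng and between -1.16 and 0.11 for Tbx21. All 11 tested effector cytokines and death ligands had a negative departure, median -0.48, and 1 had an unadjusted p under 0.05.

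Naive, memory and stem-like genes went the other way. Of 22 tested, 7 rose in Prdm1 cKO, 0 were called in c-Maf cKO and 19 rose in cDKO, while 0 were called in the departure. Their median departure was 0.36 (20 positive, 2 negative), 0.45 with the column set and 0.65 with both scores, with 2 at an unadjusted p under 0.05 (background 5.18%) and 0 close to additive. Il7r, the survival receptor for IL-7, was 8.39 at the lowest, 21.18 at the median and 56.71 at the highest in wild type, 37.52, 66.54 and 71.35 in Prdm1 cKO, with 18.74, 21.26 and 9.17 in c-Maf cKO, and 98.64, 95.99 and 96.47 in cDKO. The cDKO libraries lay above all others. Il7r rose in Prdm1 cKO (1.42, adjusted p = 0.0226, limma) and in cDKO (2.19, adjusted p = 0.0002), and departed by 1.16 (unadjusted p = 0.0462, adjusted p = 0.41).

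Satb1, a chromatin organiser of early T cells, was 10.13, 34 and 14.19 in Prdm1 cKO, with 8.68, 10.6 and 8.03 in c-Maf cKO and 26.82, 48.57 and 52.67 in cDKO, and departed by 1.21 (adjusted p = 0.31). The homing genes Ccr7 and S1pr1 (the lymph node chemokine receptor and the egress receptor) each had effects of Prdm1 loss short of the threshold (1.09 and 0.81) and rose in cDKO (1.99 and 1.74, adjusted p = 0.000438 and 0.00166, limma). Ccr7 was 428.72, 470.18 and 199.64 in Prdm1 cKO and 549.41, 633.38 and 752.6 in cDKO, where all 3 libraries exceeded every other library. Their departures were 0.78 and 1.06, neither with an interval clear of 0, and 0.46 and 0.43 with the column set; Ccr7 was at 1.26 with both scores. Tcf7 and Lef1, the HMG-box factors of stem-like T cells, departed by 0.42 and 0.75 (0.051 and 0.30 with the column set, 0.21 and 0.39 with both scores), and Id3, an inhibitor of E proteins, by 0.02 (interval -1.46 to 1.5; 0.84 and 0.86 with these covariates) with effects of 1.92 in Prdm1 cKO and 1.87 in cDKO. Klf2, which activates homing genes, departed by -0.25, by 0.95 with the column set and by 0.23 with both scores. Bcl2, the survival gene, rose in cDKO (1.45, adjusted p = 0.000465) and departed by 0.59.

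Transcription factors of effector and exhausted cells departed downwards at the median (-0.57 over 26 tested, 23 negative; -0.33 with the column set and -0.46 with both scores). In Prdm1 cKO 1 rose (1.58% of all genes), in cDKO 9 fell (6.85%), 6 departed downwards at an unadjusted p under 0.05 (6.55%) and 4 were close to additive (30.2%). Nr4a2, an orphan nuclear receptor induced by antigen receptor signals, was 20.76 at the lowest, 55.91 at the median and 89.87 at the highest in wild type, 55.36, 36.84 and 50.39 in Prdm1 cKO, with 52.68, 59.94 and 103.84 in c-Maf cKO, and 14.67, 13.47 and 13.53 in cDKO. The cDKO libraries lay below all others. It fell in cDKO against wild type (-1.85, adjusted p = 0.000271, limma) and against Prdm1 cKO (-1.69, adjusted p = 0.0478), and departed by -2.07 ± 0.49 (adjusted p = 0.083), -1.34 with the column set and -1.55 with both scores.

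Irf8, an interferon regulatory factor, was 33.89, 11.13 and 11.39 in Prdm1 cKO and 8.33, 1.76 and 3.35 in cDKO, fell in cDKO (-3.36, adjusted p = 6.61e-05, limma) and departed by -2.18 (adjusted p = 0.231). Egr2, a zinc finger factor downstream of NFAT, rose in Prdm1 cKO (1.5, adjusted p = 0.0205), stood at -0.30 in cDKO and departed by -2.08 (adjusted p = 0.141). Tox and Bhlhe40, regulators of exhaustion and of cytokine production, fell in cDKO (-1.82 and -1.34) and departed by -1.28 and -0.73, with intervals of -2.68 to 0.12 and -1.56 to 0.10, and Tox stood at -0.62 with the column set. Eomes, a T-box factor, stood at 0.00 in cDKO and departed by -0.17, or 0.82 with the column set, -0.75 with both scores and 0.046 after rescaling to the CD3 genes. Hif1a, the hypoxia factor, was close to additive, with effects of -0.12, 0.12 and -0.19 and a departure of -0.19 (interval -0.61 to 0.23), or -0.067 with the column set and 0.035 after rescaling to the CD3 genes.

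**Figure D4:**
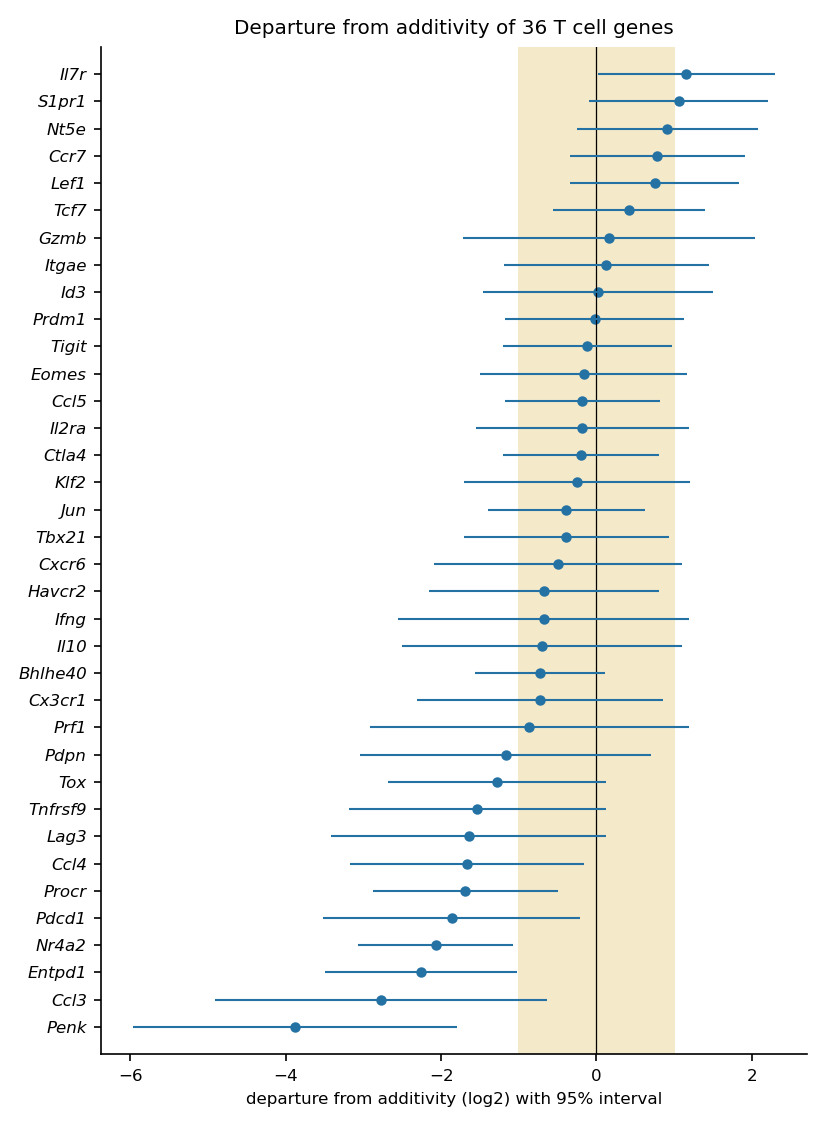
Departure from additivity (log2, horizontal axis) of 36 T cell genes with its 95% interval; the shaded band is 1 log2 unit either side of 0. Intervals of Penk, Entpd1 and Nr4a2 lie wholly below -1, that of Il7r just above 0 (0.02 to 2.30), and no interval lies wholly within the band.

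Of 20 AP-1 and immediate early genes tested, 5 rose in Prdm1 cKO (1.58% of all genes; median effect 0.83), 4 rose in cDKO (5.09%; median 0.49) and 0 were called between these groups. The median departure was -0.67, -0.24 with the column set and 0.10 with both scores. Jun, an AP-1 subunit, was 100.84, 148.5 and 202.85 in Prdm1 cKO, with 30.29, 24.39 and 51.1 in c-Maf cKO and 82.27, 74.59 and 112.45 in cDKO. It rose in Prdm1 cKO (1.75, adjusted p = 0.0029, limma) and in cDKO (1.05, adjusted p = 0.0221) and departed by -0.39 (interval -1.40 to 0.63; -0.20 with the column set, 0.48 with both scores). Klf4, a zinc finger factor, was 6.93, 4.32 and 9.32 in Prdm1 cKO and 1.15, 1.52 and 1.22 in cDKO, rose in Prdm1 cKO (1.57, adjusted p = 0.00916) and departed by -2.09 (adjusted p = 0.102; -1.02 with both scores).

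S100 proteins and annexins, calcium-binding proteins of migrating effector cells, all had negative departures: 14 of 14, median -1.13, -0.69 with the column set and -0.84 with both scores. In Prdm1 cKO 0 were called, in cDKO 7 fell (6.85% of all genes), and 5 departed downwards at an unadjusted p under 0.05 (6.55%). S100a4 was 147.8, 44.46 and 123.22 in Prdm1 cKO, with 181.37, 109.89 and 258.31 in c-Maf cKO and 70.58, 11.5 and 10.21 in cDKO, with a wild-type range of 46.58 to 273.25 that held C2. It fell in cDKO (-2.89, adjusted p = 0.00057, limma) and departed by -2.25 ± 0.80 (adjusted p = 0.27). S100a6 departed by -2.17 (adjusted p = 0.26).

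Receptors of activated T cells followed mixed patterns. Tnfrsf9, the co-stimulatory receptor 4-1BB, fell in Prdm1 cKO (-2.05, adjusted p = 0.0242, limma) and in cDKO (-3.06, adjusted p = 0.000361), and departed by -1.53 (interval -3.19 to 0.13; -0.98 with the column set). Il2ra, the IL-2 receptor alpha chain, was 5.22, 0.25 and 2.58 in Prdm1 cKO and 6.68, 0.66 and 0.59 in cDKO, and departed by -0.18 (interval -1.55 to 1.19; 0.040 with the column set, 0.35 with both scores). Cxcr6 and Cx3cr1, chemokine receptors of effector cells, fell in cDKO (-2.98 and -2.49, adjusted p = 0.000322 and 0.00126) and departed by -0.50 and -0.73, with Cxcr6 at -0.88 with both scores and Cx3cr1 at -1.62 with the column set. Itgae, the CD103 integrin chain of tissue-resident cells, was 41.99, 17.41 and 21.16 in cDKO, above the wild-type maximum of 16.42, rose in cDKO (1.86, adjusted p = 0.00267) and departed by 0.13 (interval -1.20 to 1.45; 0.42 with the column set, 1.36 with both scores). Rgs16, which shortens G protein signals, was 14.68, 9.45 and 17.72 in cDKO against 34.15 to 280.62 in wild type, and departed by -2.66 (adjusted p = 0.178; -1.32 with the column set).

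Cell cycle and metabolic lists differed in how many members were close to additive, against 30.2% of all genes. Of 21 S phase genes, 9 fell in Prdm1 cKO and 15 in cDKO, 10 were close to additive and the median departure was -0.32, or 0.25 with the column set. Of 22 G2 and M phase genes, 2 fell in Prdm1 cKO and 15 in cDKO, 6 were close to additive and 3 departed downwards at an unadjusted p under 0.05, with a median departure of -0.31, or 0.14 with the column set and -0.54 with both scores. Nuclear genes of oxidative phosphorylation were close to additive in 31 of 32 (median -0.05, or 0.114 with the column set). Glycolytic enzymes were so in 11 of 16 (median 0.09, or 0.456 with the column set and 0.036 with both scores). T cell receptor and proximal signalling genes were so in 12 of 22 (median 0.09, or 0.05 with the column set and -0.331 with both scores). Myc, the growth regulator, rose in cDKO (0.53, adjusted p = 0.0185, limma) and departed by 0.24, within an interval of -0.26 to 0.74 (0.096 with both scores). Highly expressed genes have narrower intervals, so a larger share of them can meet that description.

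Cytosolic ribosomal protein genes gave a small departure shared by most members. Of 78 tested, 9 rose in Prdm1 cKO, 65 rose in cDKO, 73 had a positive departure and 22 had one at an unadjusted p under 0.05, with a median of 0.28 (0.52 with the column set, 0.30 with both scores), while 70 were close to additive in the sense of 1 log2 unit. Killer cell lectin-like receptors had a median of 0.50 over 16 tested, with 0 at an unadjusted p under 0.05, and Gimap GTPases, survival proteins of naive lymphocytes, 0.60 over 8, or 0.19 with the column set and -0.036 with both scores. Genes of the unfolded protein response and endoplasmic reticulum chaperones departed by -0.37 at the median of 18. That median was -0.072 with the column set and -0.282 with both scores. Of these 18 genes, 5 departed downwards at an unadjusted p under 0.05 (6.55% of all genes) and 8 were close to additive (30.2%). Among them Sdf2l1 was 32.35, 20.41 and 10.8 in cDKO against 31.76 to 67.18 in wild type, fell in cDKO (-1.27, adjusted p = 0.000452, limma) and departed by -1.32 (-0.85 with the column set, -0.81 with both scores). Calr, calreticulin, fell in cDKO (-0.76, adjusted p = 0.0017) and departed by -0.70 (-0.26 and -0.41 with these covariates). Rescaling each library to its CD3 genes moved the median departure of all genes from 0.003 to 0.189, so medians under that size depend on the scale.

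**Figure D5:**
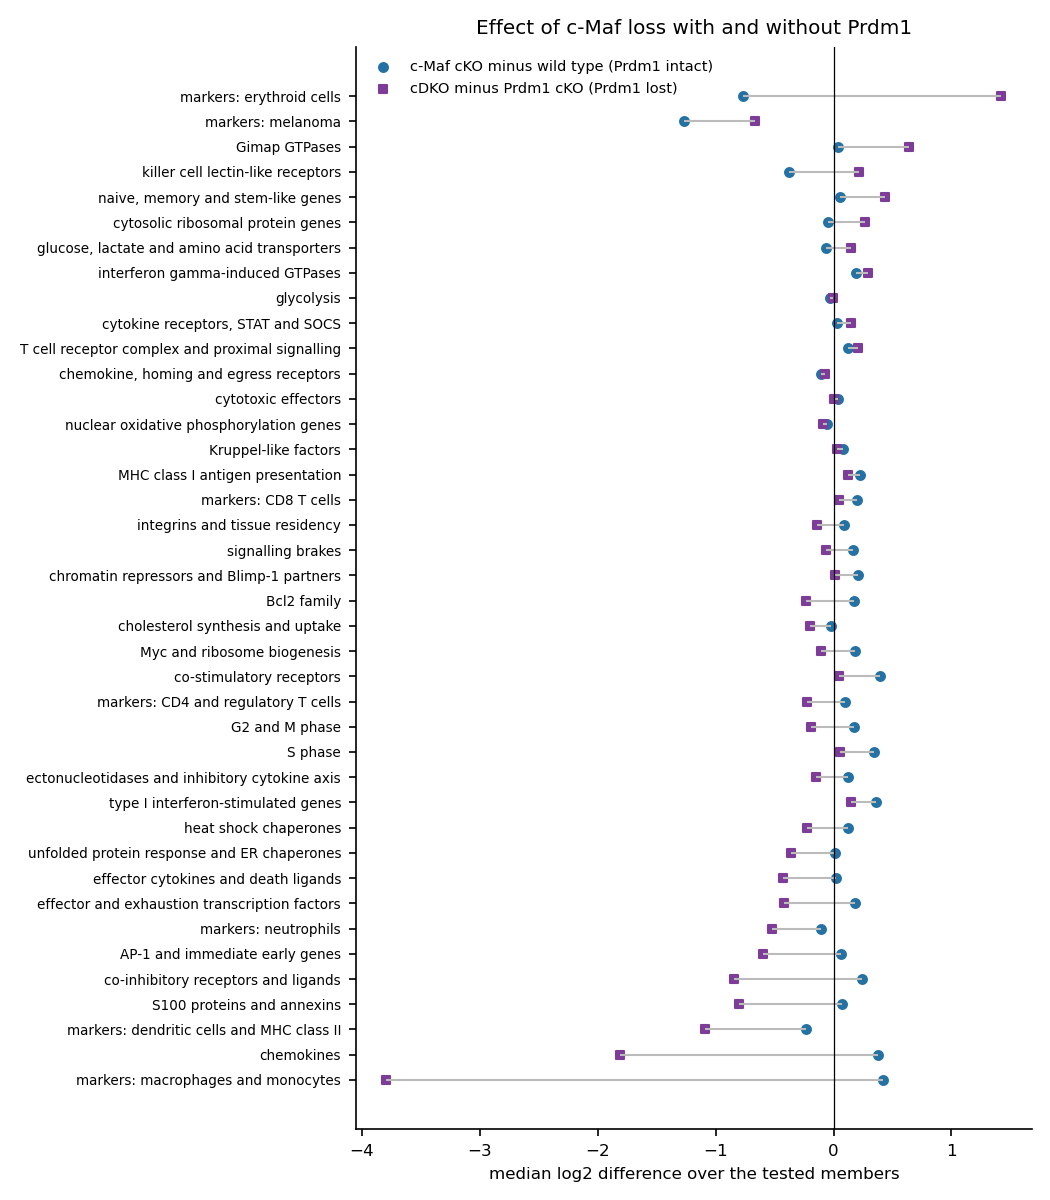
Median log2 effect of c-Maf loss over the tested members of each gene list (horizontal axis), with Prdm1 intact (circles, c-Maf cKO minus wild type) and with Prdm1 lost (squares, cDKO minus Prdm1 cKO); the grey line joins both. Macrophage markers (0.41 and -3.79) and chemokines (0.38 and -1.81) are furthest apart on the lower side, and the erythroid markers on the upper side.

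The 48 genes called between cDKO and Prdm1 cKO cover the differences between libraries labelled with and without c-Maf when Prdm1 was lost. All 48 had a departure at an unadjusted p under 0.05 (11.7% of all genes) and 1, Retnla, was called. The 48 were chosen on the difference that the departure contains, so low p-values follow in part from that choice. Of the 40 that were lower in cDKO, 21 had a Prdm1 cKO effect above 1 log2 unit, among them Retnla, Mgl2, Timp1 and Cysltr1. A further 13 had a Prdm1 cKO effect within 0.5 log2 units of 0. The same choice favours genes that are high in the Prdm1 cKO libraries, which also give that effect. Both counts therefore follow in part from the choice and are a description, and the shares over all genes were not computed. Timp1, an inhibitor of matrix metalloproteinases, was 31.08, 6.43 and 19.57 in Prdm1 cKO and 0, 1.49 and 0 in cDKO, a difference of -3.65 (adjusted p = 0.0276, limma) and a departure of -3.74 (-2.68 with both scores).

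Areg, the epidermal growth factor family ligand amphiregulin, was 12.46, 5.09 and 8.89 in Prdm1 cKO, with 4.06, 2.73 and 5.52 in c-Maf cKO and 0, 0.18 and 0 in cDKO, against a wild-type median of 4.07. Its Prdm1 cKO effect of 1.01 did not pass the test (adjusted p = 0.261, limma). It was lower in cDKO than in Prdm1 cKO by the test (-3.14, adjusted p = 0.0278, limma), with a departure of -3.24 ± 0.83 (adjusted p = 0.116), -2.96 with the column set and -2.77 with both scores. Besides Penk, Cd70 and Nr4a2, the genes with small single effects that fell in cDKO included Capg, Cd86, Ccrl2 and Ahnak. Capg, an actin-capping protein, was 59.99, 42.35 and 36.68 in cDKO, below every other library (departure -1.71; -1.07 with the column set). Cd86, a ligand of CD28 and CTLA-4 found mainly on antigen-presenting cells, was 4.2, 1.65 and 3.27 against 6.18, 10.99 and 18.88 in Prdm1 cKO (departure -1.62). Ccrl2, an atypical chemerin receptor, departed by -2.74 (-1.70 with both scores), and Ahnak, a large scaffold protein, by -1.10.

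Itgb1, the beta 1 integrin chain, was 140.97, 71.17 and 92.8 in Prdm1 cKO and 46.78, 45.33 and 48.95 in cDKO, fell against Prdm1 cKO (-1.04, adjusted p = 0.0276, limma) and departed by -1.15 (adjusted p = 0.0925). Nrp1, the receptor neuropilin 1, was 1.77, 1.17 and 0.54 in cDKO, below the wild-type minimum of 2.62, fell against wild type (-2.26, adjusted p = 0.000151) and departed by -2.29 (adjusted p = 0.0927; -1.49 with the column set). Among the 8 genes that were higher in cDKO than in Prdm1 cKO, Gbp9, an interferon-induced guanylate-binding protein, was 4.31, 13.71 and 10.32 in Prdm1 cKO, with 13.11, 15.9 and 13.51 in c-Maf cKO and 24.28, 22.81 and 25.21 in cDKO, above the wild-type maximum of 19.81, with a departure of 1.32 (adjusted p = 0.141). Guanylate-binding proteins are a family of close copies, so its signal may include theirs.

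Separation of cDKO from everything else was uncommon. In 241 genes (1.97%) all 3 cDKO libraries lay outside the range of all other libraries, 105 of them below (0.857%) and 136 above (1.11%). Ctsb, Cd70, Penk, Entpd1, Nr4a2, Capg and Nrp1 were among those below, and Cdkn1b, Il7r, Arhgef18, Rpl36 and Gbp9 among those above. With both marker scores as covariates, the departures of Penk, Cd70, Entpd1, Areg and Irf8 were -3.62, -2.85, -2.24, -2.77 and -2.08. With the column set they were -3.98, -2.47, -1.90, -2.96 and -2.09. Areg in cDKO overlapped wild type. The departures of Ctsb, Nr4a2, Capg and Nrp1, from -2.12, -2.07, -1.71 and -2.29, shrank to -0.93, -1.55, -1.30 and -1.69 with both scores. With the column set these were -1.49, -1.34, -1.07 and -1.49. In either setting 0 genes were called in the departure.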

How the data were processed

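Per the labels' protocols, libraries were prepared from lysed CD8+ T cells with a variant of SMART-Seq 2. The authors deposited 1 table of normalised signal, 1 value for each gene symbol in each library, on a scale they do not state. Per the submitters' processing notes, TopHat, RSEM and DESeq were used on mm9; their versions, filters and order were not given in the sources used here. Low values scale with transcript length (10th percentile 0.42 in the shortest quartile of 21732 matched symbols, 0.06 in the longest), so a length-scaled unit is likely. Since these are not counts, depth is unknown, and no count test, counting interval or floor is given. Column totals run from 389650 to 475956 and genes above 0 from 12749 to 15161.

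Genotypes were read from column names, which carry no replicate number; libraries are named by column code (A3), 0 column pairs were identical and 0 value columns went unused. Values were taken as log2(value + 1); fold changes on this scale understate changes of low values. A model with 4 genotype means was fitted over all 25 libraries in limma 3.58.1 (R 4.3.3; empirical Bayes, trend and robust), and p-values were adjusted by Benjamini-Hochberg over the 12251 genes with at least 1 in 3 columns, called under 0.05. The script was tested on simulated data. Adjusted p-values are limma's throughout; errors are SE unless said to be SD.

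Named genes are the 12 with the strongest departures in each direction among ordinary symbols, filled by p-value, 36 T cell genes (a further gene is not reported here), Maf and called list members, plus 33 genes chosen after their values were seen (Areg, Capg, Cd86, Ccrl2, Ahnak, Itgb1, Ctsc, Ctsd, Mgl2, Timp1, Emr1, Gbp9, Nrp1, Lyz2, Satb1, Irf8, Egr2, Klf4, Cd200, Cd200r1, S100a4, S100a6, Rgs16, Xcl1, Cxcl16, Ccl9, Sdf2l1, Calr, Gzma, Fasl, Bcl2, Myc and Hif1a). Members and lists were chosen with earlier results of these data known. Lists are described by counts and medians, with no set test. Promoters come from RefSeq (GRCm38.p6), a later build than mm9; none was converted. Alternatives were other scalings, pseudocounts (0.1 and 10), filters, covariates, weights and leaving out each library.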

Additional observations from a re-analysis of the deposited data

Results flagged for a closer look

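Retnla was singled out because the effect of c-Maf loss differed with Prdm1 status: it was 0.77 with Prdm1 present and -5.31 with Prdm1 lost, and the test of that difference itself gave -6.08 ± 0.90 (adjusted p = 0.00413, limma interaction contrast). All 3 Prdm1 cKO libraries were high and all 3 cDKO libraries were at 0. The macrophage score, which includes Retnla, moved with it. The part of that score in the result was not tested. The fit with both scores (-4.0, adjusted p = 0.4, limma) cannot show it, because Retnla is 1 of the markers averaged in the score.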

How the results depend on the processing

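In 36 of 39 alternatives Retnla stayed called (adjusted p from 5e-07 to 0.4, limma). The exceptions were the column set (-5.26, adjusted p = 0.369), both marker scores (-4.0, adjusted p = 0.4) and a minimum value of 10 (adjusted p = 0.091). Counts were less stable; they are given for genes higher and lower in the departure, close to additive, called between cDKO and Prdm1 cKO, and called in c-Maf cKO against wild type, where they left the range of 1.5 times the counts of the model as fitted. Their causes were not tested, apart from the smaller or larger number of genes under the filters (6177 and 21433 tested). With the code letter as covariate, 10 genes were higher, 21 lower and 167 called between cDKO and Prdm1 cKO. A pseudocount of 0.1 gave 10 higher, 11 lower and 6 in c-Maf cKO. A pseudocount of 10 gave 4 higher, 11 lower, 10940 close, 103 between cDKO and Prdm1 cKO and 1 in c-Maf cKO. On the square root scale, where closeness in log2 units is not defined, 2 were higher and 3 lower, and after quantile normalisation 6 and 7. With empirical Bayes lacking trend and robust options, 8 were higher, 6 lower and 4 called in c-Maf cKO. Without A9 and C1, an alternative chosen after seeing the data, 1 gene was higher, 10 were called between cDKO and Prdm1 cKO and 1 in c-Maf cKO. With the column set, 0 were lower, 2395 close and 0 between cDKO and Prdm1 cKO; with both scores 0, 1945 and 0. With no filter, 7 were lower, 12149 close, 77 between cDKO and Prdm1 cKO and 17 in c-Maf cKO; with a minimum of 10, 0 were lower. Rescaling to the CD3 genes left 1565 close, and library weights left 7 between cDKO and Prdm1 cKO.

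Leaving out 1 library at a time gave 0 to 31 genes higher, 1 to 61 lower, 3 to 142 between cDKO and Prdm1 cKO and 0 to 1 in c-Maf cKO; 15 of the 25 omissions left both counts of the departure as they were, and A6 gave the highest. The spread is pooled over the groups in each of these fits. Departures that changed sign under these omissions ranged from -0.65 to 0.37 (Prdm1), -0.54 to 0.88 (Gzmb), -1.81 to 0.16 (Ifng), -0.48 to 0.29 (Tigit), -0.65 to 0.22 (Ctla4), -0.70 to 0.31 (Klf2), -0.42 to 0.41 (Id3), -1.16 to 0.11 (Tbx21), -0.56 to 0.12 (Eomes), -0.61 to 0.092 (Ccl5), -1.27 to 0.017 (Cxcr6), -0.24 to 0.41 (Itgae), -0.93 to 0.34 (Il2ra) and -0.30 to 0.47 (Fasl). None of these genes was called in the departure.

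Other settings turned the sign of departures near 0. With the column set Prdm1 was 0.49, Prf1 0.038, Ifng 0.19, Tigit 0.061, Ctla4 0.44, Il10 0.29, Klf2 0.95, Eomes 0.82, Il2ra 0.04 and Gzma -0.26. With both scores Gzmb was -0.024, Ctla4 0.047, Klf2 0.23, Il2ra 0.35, Jun 0.48 and Lyz2 1.46. After rescaling to the CD3 genes Prdm1 was 0.17, Tigit 0.11, Ctla4 0.024, Eomes 0.046, Ccl5 0.045, Fasl 0.18 and Hif1a 0.035. With the code letter Prdm1 was 0.016, Id3 -0.068 and Fasl 0.013; with a pseudocount of 0.1 Prdm1 was 0.18 and with 10 Gzmb was -0.063 and Fasl 0.03. On the square root scale Gzmb was -1.86, Id3 -0.065 and Fasl 0.14; after quantile normalisation Prdm1 was 0.041, Tigit 0.035 and Fasl 0.071. Without A9 and C1, Prdm1 was 0.19, Klf2 0.49, Ccl5 0.069 and Jun 0.15. No paired analysis was possible because the columns carry no replicate numbers. Depth is unknown, so it sets no limit that can be stated.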
